A study of Mus musculus with 4 samples.

Results

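The genes described here are 7 matrix metalloproteinases (Mmp8, Mmp9, Mmp12, Mmp13, Mmp14, Mmp19 and Mmp25), the related protease Adam8 and the tissue inhibitors Timp1 and Timp2. They were chosen by symbol, and all 10 were found among the 32285 genes of the count tables. They were followed in single-cell RNA sequencing of leukocytes, sorted as CD45+ cells, from the spinal cord of C57BL/6 mice in which experimental autoimmune encephalomyelitis (EAE, an induced autoimmune inflammation of the cord) had been set up. Each of 2 control libraries came from mice with EAE given Ctrl MO, and each of 2 Reg1-MO libraries from mice with EAE given Reg1-MOs. Both reagents were given intracranially on day 9, and cells were taken on day 16. All libraries thus share EAE, the injection, collagenase D digestion of the cord, a Percoll step and the CD45+ sort, and no uninjected or unimmunised mice were analysed here. MO is read here as morpholino, an antisense oligomer, and Reg1 as Regnase-1, an RNase that degrades inflammatory mRNAs and whose gene is Zc3h12a. The labels write out neither name.

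Matrix metalloproteinases are zinc-dependent enzymes that cut extracellular matrix and cell-surface proteins, and most are made as inactive precursors. TIMPs bind their active site and block them. In EAE the gelatinases among them are known for opening the basement membrane around vessels, through which leukocytes enter the cord. Neutrophils store MMP8, MMP9 and MMP25 in granules during their development in bone marrow, so transcript and stored protein need not coincide in time. Several family members are targets of AP-1, C/EBP and NF-kB factors.

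The genes Mmp13, Mmp12 and Mmp8 lie in 1 cluster of metalloproteinase genes on mouse chromosome 9, all on the forward strand of GRCm38. GENCODE M21 places Mmp13 at chr9:7272514-7283331, Mmp12 at chr9:7344381-7369499 and Mmp8 at chr9:7558456-7568485. These 3 genes share a cluster, but in these data Mmp8 had its peak in another class than Mmp12 and Mmp13. Timp1 is the inhibitor with the largest difference between groups in macrophage-like cells. For all these genes the 120 bases just upstream of the RefSeq start (GRCm38.p6) are shown. They span chr9:7558309-7558428 for Mmp8, chr9:7344277-7344396 for the first of the Mmp12 starts, chr9:7272394-7272513 for Mmp13 and chrX:20870046-20870165 for Timp1, all on the forward strand and 5′ to 3′. Capitals mark motif matches.
Mmp8: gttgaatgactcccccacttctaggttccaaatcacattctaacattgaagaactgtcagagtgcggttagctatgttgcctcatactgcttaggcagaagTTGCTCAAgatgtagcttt
Mmp12: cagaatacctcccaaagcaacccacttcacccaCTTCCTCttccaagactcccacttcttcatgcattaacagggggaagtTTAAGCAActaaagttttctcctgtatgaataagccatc
Mmp13: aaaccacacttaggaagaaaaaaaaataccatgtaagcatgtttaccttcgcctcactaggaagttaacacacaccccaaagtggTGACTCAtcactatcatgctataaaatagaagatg
Timp1: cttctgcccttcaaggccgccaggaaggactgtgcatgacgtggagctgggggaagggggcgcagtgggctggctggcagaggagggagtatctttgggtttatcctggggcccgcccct

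Motifs were searched on both strands of the 250 bases before each start, for the 8 of 10 members (9 starts) with a RefSeq promoter entry. The letters were TGANTCA for AP-1, TTNNGCAA for C/EBP and GAGGAAG for PU.1/ETS, with a consensus for NF-kB, and no marked match overlaps another. A C/EBP match began 19 bases before the Mmp8 start and 39 bases before the first Mmp12 start, and such a match occurs in 9.56% of 32851 mouse promoters. An AP-1 match, held by 6.75% of promoters, began 35 bases before the Mmp13 start and 44 bases before the second Mmp12 start. PU.1/ETS letters (10.6% of promoters) began at 87 bases in Mmp12, 220 in Mmp8 and 13 in Mmp25, and Adam8 held C/EBP letters at 219 bases. No searched motif was found for Timp1, Timp2 or Mmp14, and the NF-kB consensus (0.356% of promoters) was found for no member. Each match is a string of letters in the reference and no measured binding site.

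The libraries held 8255 and 6765 barcodes (control) and 9103 and 5256 barcodes (Reg1-MO), with 75472324 to 174552218 UMIs (unique molecular identifiers, 1 per captured transcript). After quality filters 26853 cells remained in 25 clusters, of which 23 were named from marker genes. A total of 181 barcodes occurred in more than 1 library, at most 78 in a pair. Markers defining endothelium and fibroblasts were at or near 0, with Cldn5 at 0 UMIs and Col3a1 at 0 to 2 UMIs in the macrophage-like cells of a library. Zc3h12a, read as the targeted gene, showed no common direction at the transcript level: it stood at 49.9 and 59.3 CPM in control and 48.4 and 49.9 in Reg1-MO macrophage-like cells, at 62.9 and 112 against 58.4 and 77.7 in microglia-like cells, and at 46.0 and 44.3 against 55.4 and 54.1 in neutrophil-like cells. Neutrophil-like cells made up 24.1% and 36.1% of control cells and 4.99% and 19.0% of Reg1-MO cells, and microglia-like cells 7.84% and 12.7% against 15.3% and 21.2%. Because clustering used neither these 10 genes nor the protease lists, class membership does not rest on them. Levels are counts per 1e6 UMIs (CPM) summed over the cells of a class in a library, and 4 values in a row run control 1, control 2, Reg1-MO 1, Reg1-MO 2. The labels do not say that libraries came from separate animals, so p-values measure only the spread between these libraries. Fewer cells of a type and less RNA per cell cannot be told apart in sums over all cells.

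Mmp8 (neutrophil collagenase), Mmp9 (gelatinase B) and Adam8, a sheddase of leukocyte surfaces, had their highest named-class level in neutrophil-like cells. Mmp8 stood there at 2289, 2949, 1959 and 1919 CPM. In macrophage-like cells, the next class by its mean among those large enough to test, it stood at 262, 395, 55.3 and 51.3 CPM, without overlap. The highest value outside neutrophil-like cells was 913 CPM, in the 9 migratory dendritic-like cells of control 2. Mmp9 stood at 1080, 1054, 1296 and 1494 CPM in neutrophil-like cells, which carried 67.9% to 89.6% of all Mmp9 UMIs of a library. Adam8 stood at 305, 338, 296 and 289 CPM in the same cells. Neutrophil-like cells carried 61.0%, 73.1%, 48.1% and 87.3% of the Mmp8 UMIs, but 36.5%, 61.8%, 10.7% and 52.5% of the Adam8 UMIs. Most Adam8 UMIs of control 1 and of Reg1-MO 1 thus came from other cells.

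**Figure D1:**
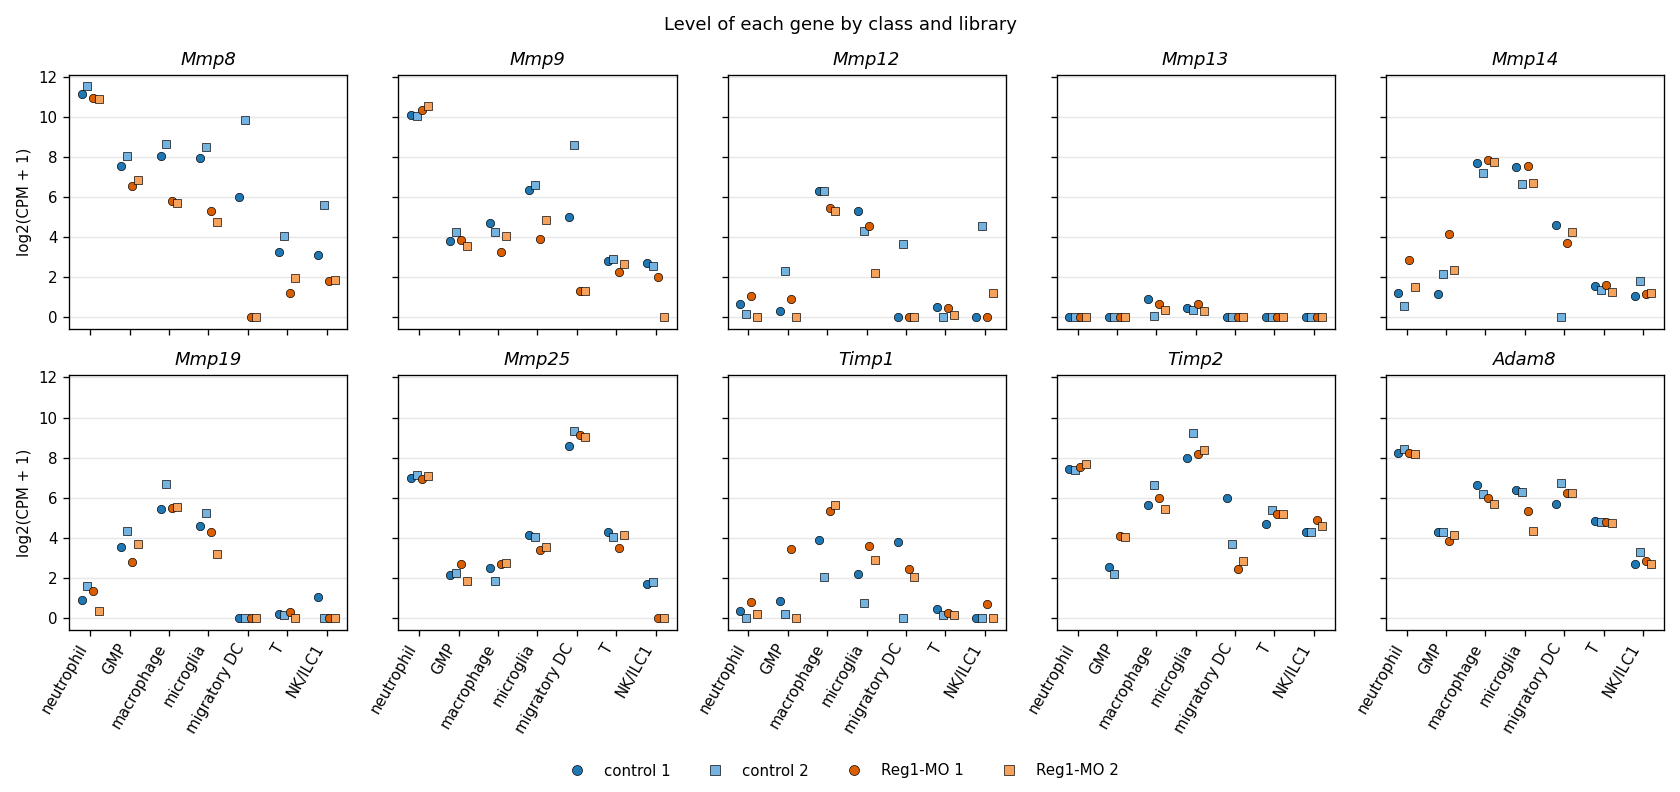
Level of each of the 10 genes, as log2(CPM + 1), in 7 named classes, with 1 point per library (blue, control; orange, Reg1-MO). Mmp8 and Mmp9 peak in neutrophil-like cells, Mmp12, Mmp14, Mmp19 and Timp1 in macrophage-like cells, Timp2 in microglia-like cells, and Mmp25 in migratory dendritic-like cells.

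Within the neutrophil-like class the genes followed different clusters. Clusters are given by number with leading genes: 9 (Camp, Cebpe), 8 (Ltf, Ngp), 7 (Retnlg) and 6 (Stfa2l1, Cxcr2), genes which as background mark early to late stages of neutrophil development. Mmp8 ran from 6.09 to 190 CPM in cluster 9, 1759 to 2532 in cluster 8, 3608 to 5261 in cluster 7 and 1756 to 5007 in cluster 6. Mmp9 ran from 77.2 to 116 CPM in cluster 9, 1190 to 1593 in cluster 8, 2044 to 2530 in cluster 7 and 1164 to 1463 in cluster 6. Both collagenase and gelatinase transcripts were therefore low in the Camp, Cebpe cluster, and Mmp9 was highest in the Retnlg cluster in every library. Timp2 was higher from cluster to cluster in the same order, from 13.7–15.1 CPM in cluster 9 to 116–152 in cluster 8 and 292–352 in cluster 7, and it was no lower in cluster 6 (311–349). Mmp25, a membrane-anchored protease also called leukolysin, was 214 to 230 CPM in cluster 7 but only 62.6 to 88.2 in cluster 6, so it did not follow Timp2 or Adam8 into the Cxcr2 cluster. Adam8 was 383 to 543 CPM in cluster 7 and 415 to 553 in cluster 6, ranges that overlap. These are levels across clusters of the same libraries and carry no test.

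**Figure D2:**
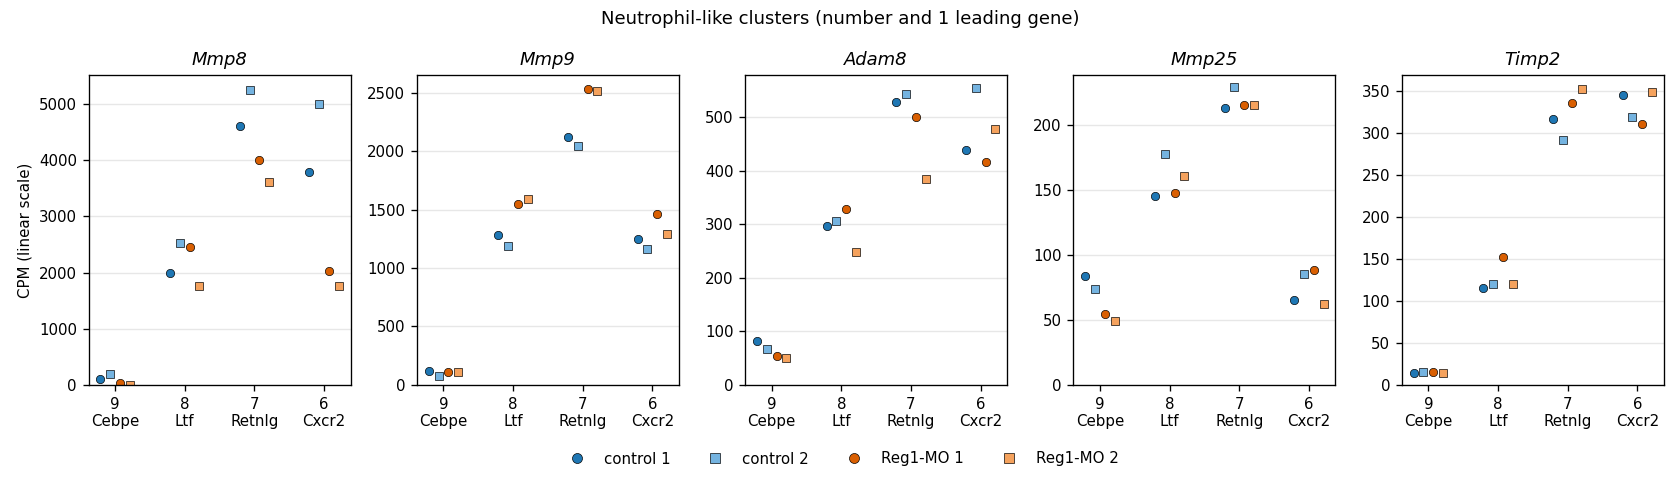
CPM (linear axis) of Mmp8, Mmp9, Adam8, Mmp25 and Timp2 in the 4 neutrophil-like clusters, 1 point per library. All 5 genes are lowest in cluster 9 except Mmp25, which overlaps there with cluster 6; Mmp25 is lower in cluster 6 than in cluster 7 in every library, while Timp2 overlaps.

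Mmp25 had a second site of expression outside granulocytes. In migratory dendritic-like cells (Ccr7, Fscn1, Ccl22) it stood at 379, 632, 553 and 526 CPM, above the 122 to 141 CPM of neutrophil-like cells in every library, although this class held only 33, 9, 62 and 55 cells. Gamma delta T-like cells held 111, 165, 78.0 and 131 CPM, a range that overlaps the neutrophil-like one. In the cells of an unnamed cluster led by Cxcl2, Acod1 and Il1b, Mmp9 stood at 594, 611, 572 and 482 CPM, below the neutrophil-like level in every library.

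Of the classes large enough to test, macrophage-like cells had the highest mean of Mmp12 (macrophage elastase), Mmp19, Mmp13 and Timp1. The same held for Mmp14 (MT1-MMP, a membrane-bound activator of other metalloproteinases). In macrophage-like cells Mmp14 stood at 210, 148, 234 and 218 CPM, and in microglia-like cells at 181, 99.5, 187 and 105 CPM. The ranges of the 2 classes thus overlapped, although macrophage-like cells were higher in every library. Mmp12 stood at 77.5, 78.3, 42.6 and 38.5 CPM in macrophage-like cells and 38.3, 18.9, 22.5 and 3.68 in microglia-like cells. Mmp13 was close to the detection limit, with 0.04 to 0.88 CPM in macrophage-like cells (77 UMIs over 4 libraries) and 65 UMIs in microglia-like cells. Mmp8, which lies in the same gene cluster on chromosome 9 as Mmp12 and Mmp13, thus had its peak in another class than they had.

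The macrophage-like class held a cluster led by Vcan, F13a1 and Fn1 (cluster 4), a cluster led by Tgfbi and Cxcl9 (cluster 2) and a cluster led by Apoe, Gpnmb and Arg1 (cluster 3). Control 1 had 797 cells in cluster 2, 890 in cluster 3 and 367 in cluster 4, and control 2 had 161, 881 and 393. Reg1-MO 1 had 1798, 909 and 98, and Reg1-MO 2 had 863, 192 and 127. The largest cluster was thus cluster 3 in both controls and cluster 2 in both Reg1-MO libraries. Cluster 4 held fewer cells in both Reg1-MO libraries than in either control. The part of this composition in the class differences was not tested, and the results for the class are also given by cluster. Mmp12 was 0 to 1.17 CPM and Mmp14 2.34 to 6.34 CPM in cluster 4, against 32.6 to 121 and 152 to 283 CPM in clusters 2 and 3. Mmp19 was not divided in this way, at 44.6 to 60.3 CPM in cluster 4, 45.1 to 95.1 in cluster 2 and 27.9 to 112 in cluster 3. Timp1 was highest in cluster 2, at 28.7, 13.2, 58.2 and 60.9 CPM, against 4.64, 2.05, 10.1 and 19.5 CPM in cluster 3 and 1.51 to 3.23 CPM in cluster 4.

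**Figure D3:**
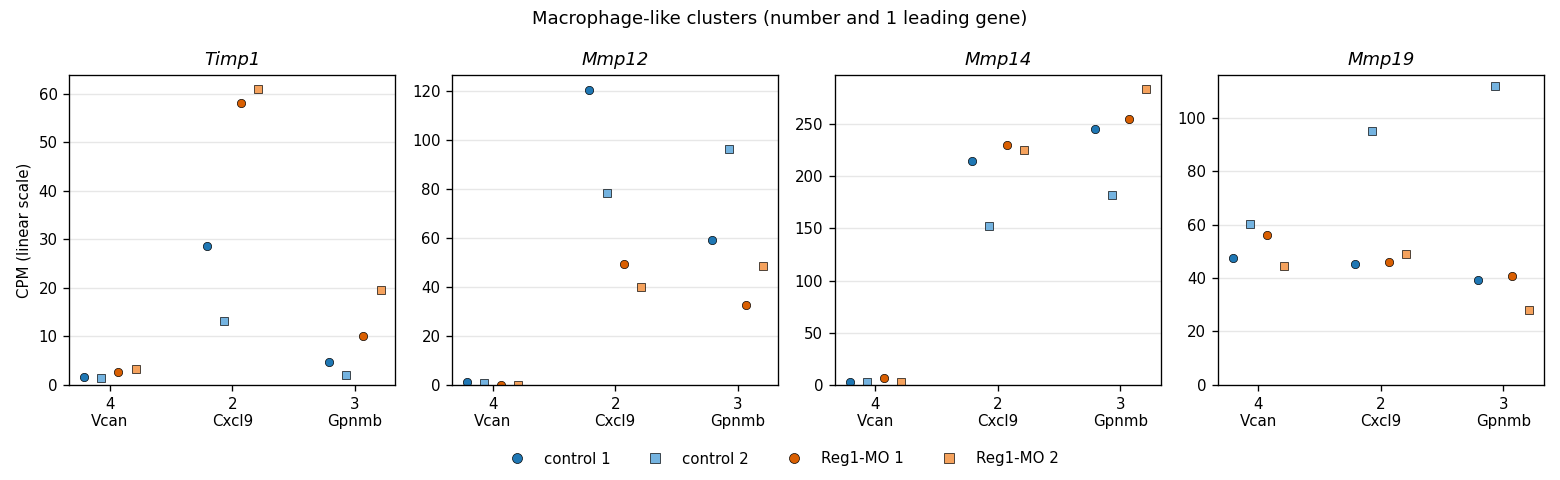
CPM (linear axis) of Timp1, Mmp12, Mmp14 and Mmp19 in the 3 macrophage-like clusters, 1 point per library. Timp1 is highest in cluster 2 and there 13.2 to 28.7 CPM in controls and 58.2 to 60.9 in Reg1-MO, while Mmp12 and Mmp14 are near 0 in cluster 4.

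Timp2 inhibits metalloproteinases and also takes part in the activation of MMP2 by MMP14. Of the classes large enough to test, it was highest in microglia-like cells, at 253, 591, 287 and 332 CPM. Its level in neutrophil-like cells was 170, 167, 181 and 206 CPM. Microglia-like cells held 59.6% to 79.5% of all Timp2 UMIs of a library. In the microglia-like cluster 12, led by Sparc and Cd81, Timp2 was 476, 853, 511 and 432 CPM. The 2 inhibitors thus differed in the class that held most of their UMIs. For Timp2 this was the microglia-like class, and for Timp1 the macrophage-like class, which carried 71.6% to 83.3% of Timp1 UMIs. Timp2 was also found in the later neutrophil-like clusters. Macrophage-like cells held both inhibitors, with Timp2 at 41.9 to 99.7 CPM over the libraries and Timp1 at 3.15 to 48.7.

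Across the 24 sums of 6 tested classes in 4 libraries, several pairs of the genes had similar patterns. Pearson's r of log2(CPM + 1) was 0.88 for Mmp8 with Mmp9, 0.89 for Mmp9 with Adam8, 0.87 for Mmp9 with Mmp25, 0.87 for Mmp12 with Mmp14 and 0.85 for Mmp14 with Timp1. Other pairs were less alike, with 0.63 for Mmp8 with Mmp25 and 0.01 for Mmp9 with Mmp14. Timp2 had r of 0.65 with Adam8, 0.60 with Mmp9, 0.46 with Mmp14 and 0.20 with Timp1. The sums share libraries and depth, so r only describes the pattern, and no grouping was computed. Among 9336 genes the most similar to Mmp8 were Cd177, Ifitm6 and Wfdc21 (r 0.967 to 0.959), and to Mmp9 Dhrs9, Ankrd22 and Ly6g, which are neutrophil transcripts in large part. Mmp14 was most like Cxcl16 (0.989), Anpep and C3ar1, and Mmp19 most like Dpep2 (0.983), Gab1 and Trim25. Timp1 was most like Ifi205 (0.952), Sod2 and Cxcl9, and Mmp12 like Pcnx, Pdpn and F7. Timp2 was most like Rnf13 (0.916), Entpd1 and Plk3, Mmp25 like Cmtm6 (0.896), Lcp1 and Cystm1, Adam8 like Antxr2 (0.926), Map3k15 and Npepps, and Mmp13, which rests on few UMIs, like Nos2 (0.889), Tmeff1 and Spon1.

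Reg1-MO and control libraries were compared by edgeR's quasi-likelihood test on UMI sums per class, 2 libraries against 2, with a gene called when its p, adjusted by Benjamini-Hochberg over all genes tested, was under 0.05. The comparison answers how the proteases differ after the intracranial reagent in each leukocyte class. Over the 9 classes and subsets large enough and all cells summed, 64 member tests could be made. Of these 2 were called, both in granulocyte-monocyte progenitor-like cells, where 1.86% of 10950 genes were called. In the other populations edgeR called 0% to 0.725% of the genes tested. DESeq2 called 9 of the same member tests, beside 9 (CD8 T-like) to 1021 (all cells summed) genes per population. Subsets and the sum over all cells use the UMIs of the classes again, so the tests are not independent. Values given with a fold change are CPM after TMM normalisation, and the log2 difference is Reg1-MO minus control ± its standard error.

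In macrophage-like cells all 10 members passed the filter on low counts and none was called, beside 0% of 13306 genes called. DESeq2 called 549 genes there, and 2394 had an unadjusted edgeR p under 0.05. Mmp8 had the largest log2 difference of the 10, at 257 and 392 CPM in controls and 56.6 and 51.3 in Reg1-MO, a log2 difference of -2.59 ± 0.24 (edgeR adjusted p = 0.23, DESeq2 adjusted p = 1.2e-20). Both controls lay far above both Reg1-MO libraries. Mmp12 stood at 76.2 and 77.7 CPM against 43.6 and 38.55 (-0.90 ± 0.11, edgeR adjusted p = 0.23, DESeq2 3.3e-05), again without overlap. Timp1 was higher in Reg1-MO, at 13.4 and 3.13 CPM in controls and 41.1 and 48.8 in Reg1-MO (2.41 ± 0.63, edgeR adjusted p = 0.23, DESeq2 0.12), and the controls lay farther from each other on the log scale than control 1 lay from either Reg1-MO library.

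The sizes of these differences changed when a control library was left out. Without control replicate 1 the log2 difference was -2.86 for Mmp8 and 3.84 for Timp1. Without control replicate 2 it was -2.25 for Mmp8, 1.74 for Timp1 and -0.89 for Mmp12. The edgeR calls in this class also depended on the library left out. Without either Reg1-MO library none of these 3 genes was called. The lone library of the smaller group is assumed in these fits to vary like the others.

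Of the other members in macrophage-like cells, Adam8 was 98.0 and 71.2 CPM against 63.5 and 50.01 (-0.57 ± 0.21), and Mmp9 24.7 and 18.1 against 8.85 and 15.99 (-0.81). Mmp14 was 206 and 147 against 240 and 219 (0.38 ± 0.19), close together though not overlapping. Mmp25 was at most 5.69 CPM and Mmp13 at most 0.87. Mmp19 and Timp2 overlapped, with control 2 the highest library for both (101 and 99.0 CPM). In all, 7 of the 10 members did not overlap between groups, beside 58.3% of all genes tested in this class, so the count is little above the background. The median log2 difference of the members was -0.52 and that of all genes -0.01.

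The Mmp8 difference was also present in each macrophage-like cluster, an examination by cluster chosen after the data had been seen. In cluster 4 Mmp8 was 855 and 1258 CPM in controls and 302 and 198 in Reg1-MO (-2.09 ± 0.21, edgeR adjusted p = 5.7e-04), in a fit that called 7.71% of 9530 genes. In the same cluster Mmp9 fell from 11.3 and 17.0 to 1.81 and 3.18 CPM (-2.42 ± 0.48, adjusted p = 0.013) and Adam8 from 47.6 and 50.9 to 36.2 and 25.5 (-0.71 ± 0.19, adjusted p = 0.048), while Mmp19 and Timp2 were not called. In cluster 2, where 0% of 12013 genes were called (1470 with an unadjusted p under 0.05, 139 called by DESeq2), Mmp8 was 193 and 360 against 49.6 and 41.1 CPM (-2.60), and in cluster 3 (0.0163% of 12278 genes called) 198 and 205 against 52.6 and 28.2 (-2.28), neither called. In cluster 2 Timp1 was 28.4 and 12.98 against 59.6 and 61.3 CPM (1.42 ± 0.30), and in cluster 3 it was 4.56 and 2.10 against 10.2 and 19.3 (2.05 ± 0.46), neither called and neither overlapping, where the class as a whole gave 2.41. Mmp12 was 119 and 77.2 against 50.8 and 40.3 CPM in cluster 2 (-1.13).

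The share of cells with at least 1 Mmp8 UMI showed the same separation after each cell had been thinned to 2000 UMIs. Among macrophage-like cells it was 32.4% and 40.5% in controls and 8.35% and 7.94% in Reg1-MO, with Wilson 95% intervals of 30.4–34.5%, 38.0–43.1%, 7.38–9.44% and 6.53–9.63%. Thinning left out 0.68% to 1.18% of the cells, and without it the shares were 67.9%, 73.6%, 31.7% and 27.6%. In cluster 4 the thinned shares were 73.1%, 84.4%, 43.9% and 26.4%. T-like cells, which should lack the gene, gave thinned shares of 1.54%, 2.12%, 0.16% and 0.61%, lower than the macrophage-like shares in all 4 libraries. The shares do not show which cells made the Mmp8 transcripts, and this was not tested. The intervals cover counting error only.

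Neutrophil transcripts moved with Mmp8 in this class. The 12 neutrophil markers were all detected in macrophage-like cells of each library, and their summed level was 3607 and 3973 CPM in controls and 1072 and 2518 in Reg1-MO, and that of S100a8 alone 1525 and 1721 against 479 and 953. Per 1000 S100a8 UMIs, cluster 4 held 452, 360, 778 and 687 Mmp8 UMIs, where the 3 later neutrophil-like clusters held 11.9 to 58.2. Cluster 4 thus had more Mmp8 per S100a8 than each of those neutrophil-like clusters in all 4 libraries, and the ratio was higher in Reg1-MO than in control. In clusters 2 and 3 the ratio was 34.6 to 188, with overlap between groups in cluster 3. Over the whole macrophage-like class it was lower in Reg1-MO, at 172 and 229 in controls against 115 and 53.8. T-like cells, which should lack the gene, showed a log2 difference of similar size at a far lower level: Mmp8 was 8.78 and 15.7 CPM in controls and 1.34 and 2.90 in Reg1-MO (-2.61 ± 0.45, edgeR adjusted p = 0.34), and S100a8 there 202 and 430 against 76.7 and 192. Mmp8 from free RNA was not subtracted in any class. Monocyte and macrophage markers also differed, at a summed 16838 and 20502 CPM in controls against 9660 and 9144, and their part in the Mmp8 difference was not tested.

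**Figure D4:**
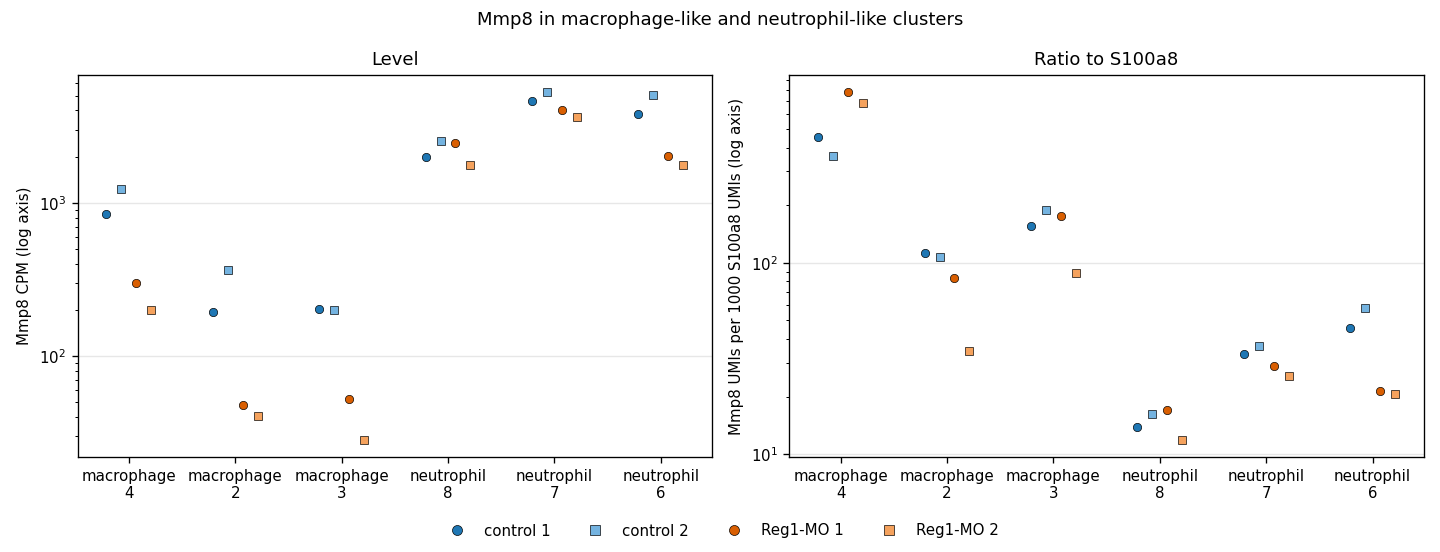
Mmp8 in 3 macrophage-like and 3 neutrophil-like clusters, 1 point per library, on log axes, as CPM in one panel and as UMIs per 1000 S100a8 UMIs in the other. Cluster 4 has 201 to 1229 CPM and the highest ratio (360 to 778), while the neutrophil-like clusters have higher CPM and ratios of 11.9 to 58.2.

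In neutrophil-like cells 7 members passed the filter and edgeR called none, beside 0.104% of 10612 genes called (1314 with an unadjusted p under 0.05, 138 called by DESeq2). Mmp8 stood at 2277 and 2808 CPM in controls and 1898 and 2102 in Reg1-MO (-0.35 ± 0.19, adjusted p = 0.50). Mmp9 stood at 1075 and 1004 against 1256 and 1637 (0.48 ± 0.18, adjusted p = 0.34), with both Reg1-MO libraries above both controls. The 2 stored proteases thus had opposite signs, neither past the threshold, and 4 of 7 members did not overlap, beside 43.2% of all genes. Mmp14 was at 1.34 and 0.46 CPM against 6.20 and 2.09 (2.07 ± 0.68). Mmp25 differed by 0.05, Adam8 by -0.05 and Timp2 by 0.30 on the log2 scale, none beyond 2 standard errors, and Mmp19 was at most 1.88 CPM. The UMIs of Mmp12, Mmp13 and Timp1 were too few to test.

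Single neutrophil-like clusters differed in Mmp8. In cluster 6 (0.126% of 7118 genes called) it was 3750 and 4746 CPM in controls and 2148 and 1826 in Reg1-MO (-1.10 ± 0.17, adjusted p = 0.056), without overlap and just short of the threshold. In cluster 7 (1.94% of 6921 genes called) it was 4620 and 4878 against 4123 and 3869 (-0.25 ± 0.14), and in cluster 8 (1.13% of 7858 genes called) 2021 and 2472 against 2381 and 1863 (-0.09). Mmp9 was 0.31, 0.40 and 0.37 higher on the log2 scale in clusters 6, 7 and 8, called in none of them. The difference between clusters was not tested.

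The Mmp8 difference was larger in macrophage-like than in neutrophil-like cells by the test of the difference itself. The class by treatment interaction, with library as a block, was -2.25 ± 0.25 on the log2 scale (edgeR adjusted p = 0.023), in a fit that called 0.0687% of 13092 genes. It was called under each of the alternatives run, including each left-out library, with values from -2.43 to -1.95. The same interaction for Mmp9 was -1.34 ± 0.25 (edgeR adjusted p = 0.10, DESeq2 3.4e-04). Between macrophage-like and microglia-like cells edgeR called no member's difference, beside 0% of 14369 genes (1189 with an unadjusted p under 0.05). DESeq2 called 32 genes, among them Mmp9, whose difference was 1.35 ± 0.23 (edgeR adjusted p = 0.43, DESeq2 0.025).

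In microglia-like cells all 10 members were tested and edgeR called none, beside 0% of 14002 genes (1214 with an unadjusted p under 0.05, 228 called by DESeq2, among them Mmp8, Mmp9 and Adam8). Mmp8 was 257 and 358 CPM in controls and 40.1 and 24.6 in Reg1-MO (-3.25 ± 0.35, edgeR adjusted p = 0.19). Mmp9 was 84.3 and 97.5 against 14.6 and 26.4 (-2.15 ± 0.32, edgeR adjusted p = 0.25), and Adam8 84.7 and 76.1 against 40.8 and 17.9 (-1.45 ± 0.40). These 3 are the genes with their highest level in neutrophil-like cells, and 6 of 10 members did not overlap, beside 44.3% of all genes. Neutrophil markers summed to 18780 and 23539 CPM in the control microglia-like cells and 1841 and 10295 in the Reg1-MO ones. The class also held cluster 11 (led by Ccl2, Ccl12 and Arg1), with 1581 cells and a median of 55616 UMIs. Cluster 12 had 1706 cells and a median of 14918 UMIs. The values of control 2 rested largely on cluster 13 (led by Mertk and Apoe), which held 266 of its 796 microglia-like cells. Without that cluster, an alternative chosen after the data had been seen, Mmp8 was 248 and 62.7 CPM against 38.9 and 22.7 (-2.34 ± 0.72), and Mmp9 77.5 and 16.8 against 12.2 and 23.4 (-1.42 ± 0.76), so Mmp9 overlapped between groups.

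Per 1000 S100a8 UMIs, microglia-like cells held 11.7, 10.3, 19.5 and 7.88 Mmp9 UMIs and neutrophil-like cells 8.84, 8.09, 10.6 and 11.3. For Mmp8 the ratio was 35.6, 37.8, 53.4 and 7.34 in microglia-like cells and 14.6 to 22.6 in neutrophil-like cells. For Adam8 it was 11.7, 8.03, 54.4 and 5.33 in microglia-like cells and 2.19 to 2.60 in neutrophil-like cells. The ratios thus lay near those of neutrophil-like cells for Mmp9, above them in every library for Adam8, and above them in 3 of 4 libraries for Mmp8. In cluster 12 alone (0% of 11569 genes called, 1011 with an unadjusted p under 0.05 and 25 called by DESeq2), where S100a8 was 304, 309, 230 and 260 CPM, Mmp9 differed by 0.24 and Mmp8 was 10.1 and 14.8 against 5.84 and 5.60 CPM (-1.16). The part of neutrophil transcripts in the class values was not tested. When the 10 genes and the protease lists were kept among the genes clustered on, Mmp9 in microglia-like cells differed by 0.24.

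Timp1 in microglia-like cells was 3.65 and 0.66 CPM against 11.2 and 5.92 (1.96 ± 0.76), the same direction as in macrophage-like cells and also uncalled. Timp2 was 261 and 593 against 297 and 311 CPM (-0.49), with control 2 above the rest and the groups overlapping. Mmp14 differed by 0.03, Mmp19 by -1.17 and Mmp25 by -0.73 ± 0.18. The microglia-like cells of control 1 and Reg1-MO 1 had median depths of 42804 and 42310 UMIs, and those of control 2 and Reg1-MO 2 16814 and 17049.

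Granulocyte-monocyte progenitor-like cells (Prtn3, Elane, Mpo) were 270, 237, 65 and 82 cells, and 1.86% of their 10950 genes were called. Of 7 members tested, Mmp8 fell from 193 and 263 CPM to 94.9 and 112 (-1.13 ± 0.18, edgeR adjusted p = 0.040) and Timp2 rose from 4.95 and 3.60 to 16.4 and 15.1 (1.87 ± 0.29, adjusted p = 0.038). The groups did not overlap for either gene. In all, 4 of 7 members did not overlap in this class, beside 50.2% of all genes tested. Both calls were lost under some alternatives: without Reg1-MO replicate 1 the adjusted p was 0.056 for Mmp8 and 0.0502 for Timp2, without control replicate 2 it was 0.11 for Timp2, and with doublets kept 0.22 and 0.49. Beside these, neutrophil markers in the class summed to 32450 and 23178 CPM against 12117 and 16352, progenitor markers to 18276 and 16012 against 8120 and 10907, and microglial markers to 126 and 132 against 315 and 343. Mmp8 per 1000 S100a8 UMIs was 24.4 in control 2 and 14.1 and 15.99 in Reg1-MO, with control 1 below these, so the groups overlapped. The part of these markers in the 2 calls was not tested.

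**Figure D5:**
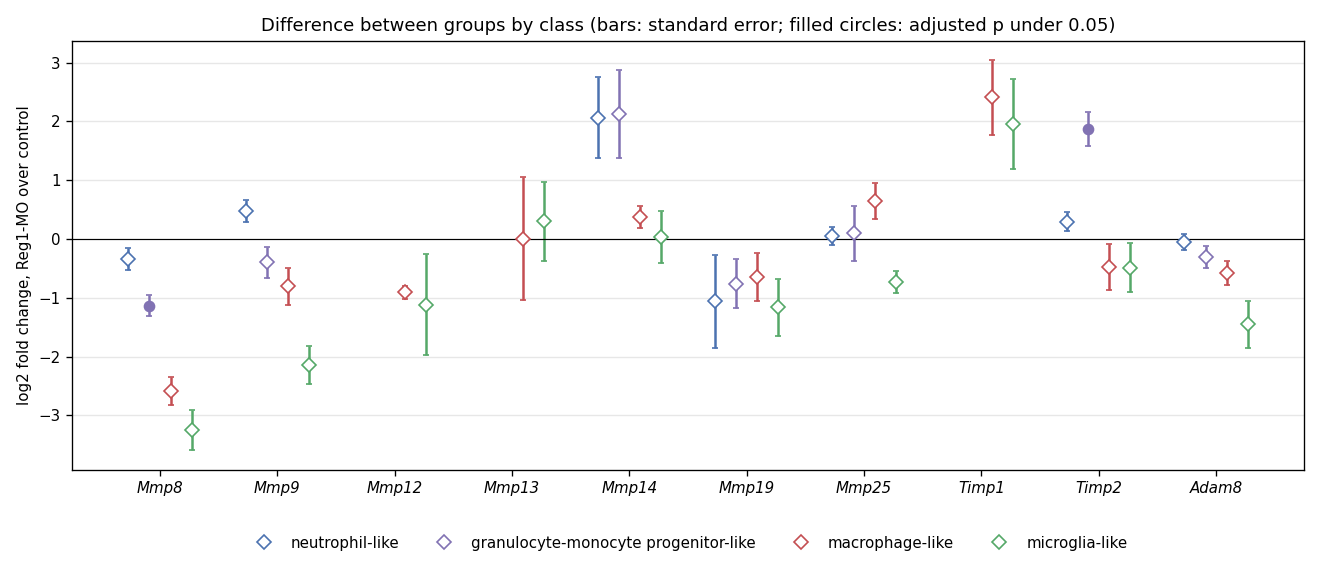
Log2 fold change, Reg1-MO over control, of each member tested in neutrophil-like, granulocyte-monocyte progenitor-like, macrophage-like and microglia-like cells, with bars for the standard error and filled circles for calls at an adjusted p under 0.05. Mmp8 lies below 0 in macrophage-like (-2.59), microglia-like (-3.25) and progenitor-like (-1.13) cells and Timp1 above 0 in macrophage-like cells (2.41).

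In the lymphoid classes tested edgeR called no member. Mmp8 was 7.68 and 10.1 CPM in control and 0.67 and 1.64 in Reg1-MO CD4 T-like cells (-3.06 ± 0.41, edgeR adjusted p = 0.11). In CD8 T-like cells it was 9.43 and 37.0 against 0.51 and 2.25 CPM (-4.23 ± 0.89, edgeR adjusted p = 0.40). These values rest on 2 to 77 UMIs in a library. In regulatory T-like cells Mmp8 overlapped between groups (-1.21 ± 0.83), and Mmp9 was 8.16 and 10.5 against 14.4 and 21.1 CPM (0.88 ± 0.38). Timp2 reached 81.5, 129, 95.99 and 70.3 CPM in regulatory T-like cells, with the groups overlapping. In T-like cells 6 members were tested (0% of 12411 genes called, 1303 with an unadjusted p under 0.05), and DESeq2 called 68 genes, among them Mmp8 with the values given above. Adam8 in T-like cells was 28.3, 26.2, 26.6 and 25.2 CPM, level across the groups. No member was called among 6 in CD4 T-like cells (0.0714% of 11203 genes called), 3 in CD8 T-like cells (0% of 9671, 680 with an unadjusted p under 0.05 and 9 called by DESeq2), 4 in regulatory T-like cells (0.25% of 8798) or 1, Timp2, in NK/ILC1-like cells (0.725% of 7720). The members not tested there had too few UMIs to pass the filter.

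Summed over all cells, no member was called, beside 0% of 16780 genes (2891 with an unadjusted p under 0.05, 1021 called by DESeq2). Mmp8 was 464 and 925 CPM against 71.1 and 218 (-2.27 ± 0.64, edgeR adjusted p = 0.22) and Adam8 103 and 125 against 48.5 and 54.5 (-1.15 ± 0.15, edgeR adjusted p = 0.20, DESeq2 2.0e-06). Timp1 was 6.33 and 1.25 against 18.8 and 15.5 (2.17 ± 0.74). The share of neutrophil-like cells given above was also lower in both Reg1-MO libraries, and its part in these sums was not tested.

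Of 73 other genes in 7 lists of the protease system, 4 of 399 tests over the same populations were called by edgeR, 3 of them in progenitor-like cells, where 1.86% of all genes were called, and 1 in NK/ILC1-like cells, where 0.725% were. In progenitor-like cells Adam15, another sheddase, rose from 26.8 and 26.2 to 59.0 and 47.2 CPM (1.00 ± 0.16, edgeR adjusted p = 0.042) and Junb, an AP-1 subunit, from 536 and 505 to 1038 and 826 (0.84 ± 0.13, adjusted p = 0.040). Serpine2, a serpin that blocks plasminogen activators, fell there from 33.7 and 34.2 to 7.72 and 11.2 CPM (-1.82 ± 0.21, adjusted p = 0.026). Spp1, osteopontin, rose in NK/ILC1-like cells from 10.2 and 3.80 to 29.8 and 74.4 CPM (2.69 ± 0.51, edgeR adjusted p = 0.013). In macrophage-like, microglia-like and neutrophil-like cells no list gene was called by edgeR. Of the AP-1 and NF-kB list, 9 of 12 genes in macrophage-like and 11 of 12 in neutrophil-like cells lay above 0, with medians of 0.29 and 0.19, where 48.7% and 48.3% of all genes lay above 0. In T-like cells 2 of its 12 genes lay above 0 (median -0.17) and in CD4 T-like cells 0 of 11 (median -0.25), where 49.6% and 49.7% of all genes did. Its most abundant members Junb and Fos differed by 0.19 and -0.17 in macrophage-like cells. Of 16 other metalloproteinases 15 were in the tables and only 3 passed the filter in macrophage-like cells, where Mmp2 was 3.15, 4.49, 4.25 and 4.47 CPM and Mmp27 2.40, 3.71, 1.44 and 0.51. Cst3 (cystatin C) and Plaur (the urokinase receptor), abundant members of the inhibitor and plasminogen lists, differed by -0.18 and 0.15 in macrophage-like cells.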

How the data were processed

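The authors deposited raw UMI counts per gene and barcode for the 4 libraries. Per the file headers these were written by Cell Ranger 5.0.1. The kit was 10x 3', per the labels' protocols, and the build mm10 with Seurat 4.0, per the submitters' processing notes. How cells were called is not stated in the labels. From these counts, barcodes under 500 UMIs or 200 genes or over 10% mitochondrial UMIs were dropped (1.64% to 4.26% of a library), and those with the highest Scrublet doublet scores were removed at 0.8% per 1000 barcodes. Clustering (scanpy 1.11.5, igraph 0.11.9, Python 3.11.15) used 3000 variable genes, 40 principal components, 15 neighbours and resolution 1, without the members and protease lists. Clusters were named "-like" from marker lists. The naming thresholds (score 0.5, at least 3 markers in 10% of cells, the top 10 genes) were set after clusters were seen, and 2 clusters with 859 cells stayed unnamed.

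UMIs were summed per library and class, for classes with at least 50 cells in each library, and tested with edgeR 4.0.16 (limma 3.58.1, R 4.3.3) after TMM and filterByExpr with a minimum count of 10. The script was tested on simulated data. DESeq2 1.42.0, no filter, each library left out, doublets kept, members clustered on, a replicate block, single clusters and the removal of shared barcodes were alternatives, the last 2 chosen after seeing the data. The genes named are all members, called genes of the protease lists or else their most abundant ones, and the 3 genes most like each member among those of at least 5 CPM. The members, lists and markers were chosen with earlier results of these data known. Positions are from GENCODE M21 and promoters from RefSeq, both GRCm38.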

Additional observations from a re-analysis of the deposited data

Results flagged for a closer look

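The treatment effect on Mmp8 differed between macrophage-like and neutrophil-like cells by the interaction test, with a log2 difference of -2.25 between the classes. The effect was -2.59 in macrophage-like and -0.35 in neutrophil-like cells, from the same 4 libraries. In T-like cells, which should lack the gene, the log2 difference was -2.61, and in the CD4 and CD8 T-like subsets it was -3.06 and -4.23. Neutrophil-like clusters 6 to 8 ran from -1.10 to -0.09, and macrophage-like clusters 2 to 4 from -2.60 to -2.09.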

How the results depend on the processing

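Counts of genes called by edgeR depended on the settings, and with 2 libraries per group few calls were stable. The 2 member calls became 9 with DESeq2, 25 with no filter on low counts, 1 with doublets kept and 3 to 14 with a library left out. With DESeq2 the counts of genes called were 22 (NK/ILC1-like), 68 (T-like), 390 (progenitor-like), 228 (microglia-like), 549 (macrophage-like), 138 (neutrophil-like), 78 (CD4 T-like), 9 (CD8 T-like), 61 (regulatory T-like) and 1021 (all cells), and for the differences between classes 32 (macrophage-like against microglia-like) and 135 (against neutrophil-like). With no filter they were 193, 558, 1267, 905, 2083, 611, 637, 195, 395, 215, 294 and 559 in the same order. With doublets kept, 0 genes were called in progenitor-like, 32 in neutrophil-like and 1 in regulatory T-like cells, and 15 for macrophage-like against neutrophil-like. With the members clustered on, 86 were called in NK/ILC1-like and 37 in neutrophil-like cells and 49 for macrophage-like against neutrophil-like. With a library left out, the counts ran from 54 to 167 (NK/ILC1-like), 0 to 168 (T-like), 139 to 795 (progenitor-like), 0 to 57 (microglia-like), 0 to 2531 (macrophage-like), 106 to 577 (neutrophil-like), 1 to 180 (CD4 T-like), 3 to 53 (CD8 T-like), 3 to 188 (regulatory T-like), 0 to 37 (all cells), 0 to 507 (macrophage-like against microglia-like) and 6 to 478 (against neutrophil-like). The cause was not tested, except that leaving out libraries leaves fewer samples. Of 725 member values over the alternatives, 521 kept their direction and side of the threshold. Uncalled ones among these also stayed within the standard error of the main fit. Another 5 lost and 59 gained a call. The other 140, uncalled in both settings, moved by more than that standard error or changed sign, and 0 called values changed sign. Leaving out barcodes shared between libraries changed no member call. Among the classes large enough to test, levels ranked by the mean over cells gave the same highest class for each member. The migratory dendritic-like cells, where Mmp25 was highest, were not in this ranking. Low counts limit Mmp13, and Timp1 and Mmp12 outside macrophage-like and microglia-like cells.

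The labels do not say that a replicate number marks a shared animal, batch or day, and 2 pairs per class do not decide whether the numbers pair the libraries. The correlation of same-numbered libraries' deviations ran from -0.05 to 0.35 over the populations tested. With the replicate number as a block, the counts were 29 (NK/ILC1-like), 10 (T-like), 291 (neutrophil-like), 1 (CD4 T-like), 1 (CD8 T-like), 183 (regulatory T-like) and 31 (all cells), and 4 members were called, the added ones being Mmp8 in T-like cells (-2.57) and Mmp14 in neutrophil-like cells (2.19).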
